A study of Mus musculus with 3 samples.

Results

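The 40 genes described here drive, brake or carry out the cell division cycle, and they were chosen by name, as 40 of 21829 protein-coding genes, and not from any measured value. They comprise 8 G1 cyclins and kinases, 4 genes of the RB and E2F switch, 5 inhibitors of cyclin-dependent kinases (CDKs), 11 genes of replication licensing and S phase, and 12 genes of G2 and mitosis. Accessible DNA was measured by DNase-seq in 3 libraries of 1 group, primary natural killer cells of male B6CASTF1/J mice, which are hybrids of C57BL/6J and CAST parents, taken as virgin adults of 2 months with no treatment or engineered allele named. All 3 libraries carry 1 donor label and separate biosample labels, and nothing says that they came from separate animals, so p-values and SDs may reflect technical spread alone. No sort or gate is named, and with 1 group there was no comparison between conditions.

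Cyclins bind and activate CDKs. In G1, D-type cyclins with Cdk4 or Cdk6 and then E-type cyclins with Cdk2 inactivate the retinoblastoma protein, which releases E2F factors to switch on genes for DNA replication. Genes needed later, in G2 and mitosis, are known to be controlled largely through CCAAT boxes bound by NF-Y and through the cell cycle genes homology region (CHR), a short element bound by the MuvB complex, which represses in resting cells and activates in dividing ones. Resting natural killer cells divide little and can divide rapidly when cytokines or infection activate them. DNase I cuts DNA that nucleosomes leave free, so clusters of cuts (peaks) mark accessible sites, and short protected stretches within them (footprints) mark bases covered by bound protein. Accessibility says that a site is open, not that its gene is transcribed.

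The libraries held 40484, 84564 and 81854 peaks and 101990, 239483 and 222990 footprints in replicates 1, 2 and 3, so replicate 1 stood apart by its shorter lists. Read depth is unknown from these files. Of 12 natural killer markers, 10 had an open promoter in all 3 libraries and 12 in replicates 2 and 3. Of the B cell markers 6 of 10 were open in all 3 libraries, and of the T cell markers 3 of 10. Myeloid markers numbered 2 of 10 and erythroid markers 2 of 8. The share over all protein-coding genes was 51.3%, and cell purity cannot be read from these lists.

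A promoter was counted as open where a peak overlapped the 500 bp on either side of any annotated start site. The promoters of 38 of the 40 cell cycle genes were open in all 3 libraries, against 51.3% of all protein-coding genes. The members open in replicates 1, 2 and 3 numbered 38, 40 and 40, beside 51.7%, 58.8% and 58.0% of all genes. Most members have CpG-rich promoters, which are commonly open in many cell types. Their median ratio of observed to expected CpG was 0.808, against 0.614 for all genes and 0.768 for genes open in all 3 libraries. Among genes with a ratio of at least 0.6, a background chosen after the values were seen, 81.6% were open in all 3 libraries, and 34 of 36 such members were. The other pathway genes were open as widely: 16 of 16 further E2F, pocket protein and MuvB genes, 26 of 26 origin and fork genes, 26 of 26 mitosis genes and 23 of 24 further cyclins, CDKs and inhibitors were open in all 3 libraries. The exception, Ccna1, a cyclin of male germ cells, had no promoter peak in any library.

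How strongly a promoter was open was read as the percentile of its strongest peak among all peaks of the same library. Median percentiles are lower in replicate 1, whose list is shorter. Over the 38 members open in all 3 libraries, the median stood at 85.1, 92.8 and 92.2 in replicates 1, 2 and 3. The values for all genes open in all 3 libraries were 84.7, 92.4 and 91.9. Ccnd1 and Cdkn2a, without a peak in replicate 1, are left out of these medians. The members were thus open in a larger share than all genes, at a strength close to that of the median open promoter.

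**Figure D1:**
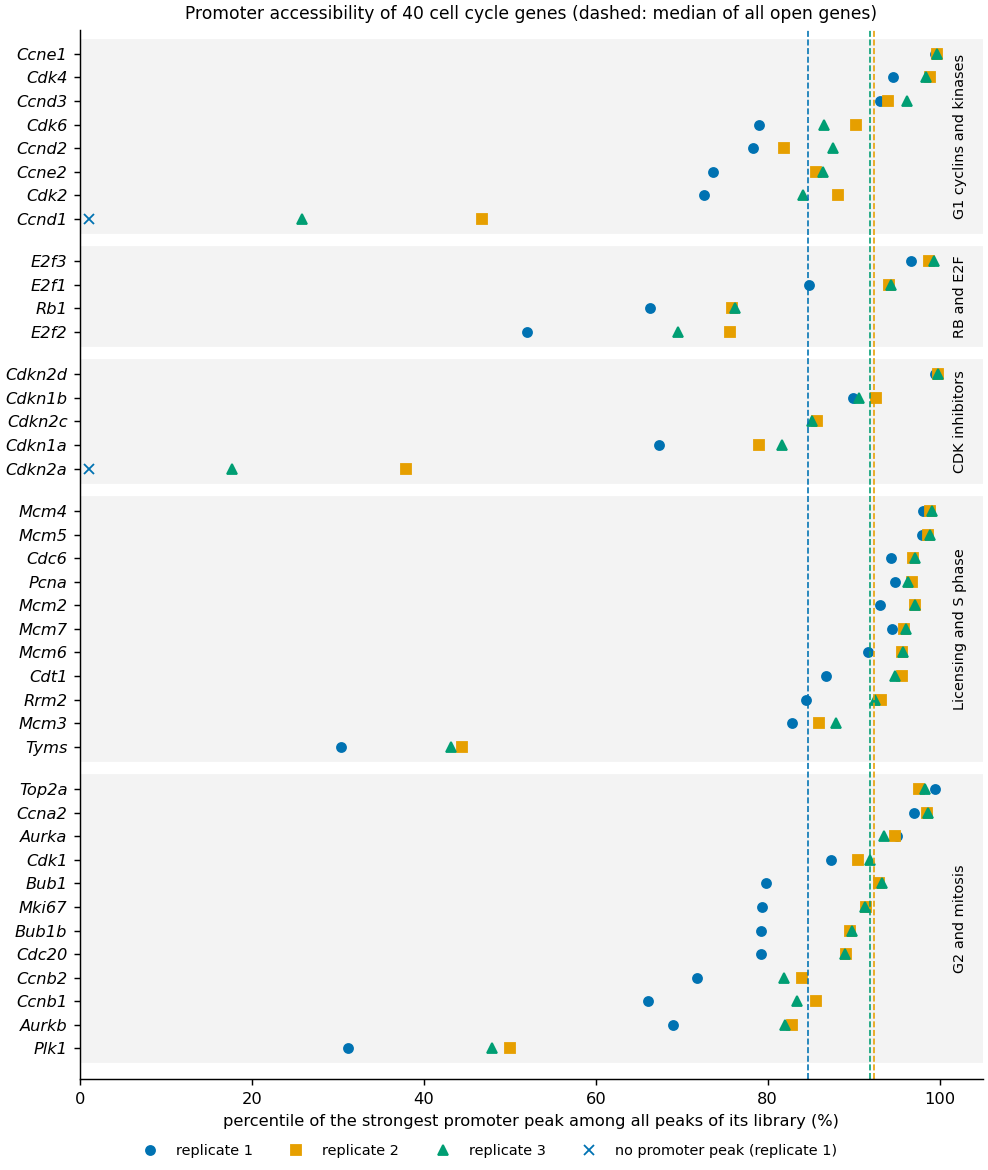
Each row is 1 gene and each point the percentile of its strongest promoter peak in 1 library (horizontal axis, %), with genes grouped by role. Dashed lines give, for each library, the median of all genes open in all 3 libraries. Crosses mark the 2 genes with no promoter peak in replicate 1, Ccnd1 and Cdkn2a. The licensing and S phase genes crowd at the right, except Tyms.

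The G1 cyclins and kinases spanned nearly the whole range. Ccne1, the E-type cyclin that partners Cdk2 at the G1 to S transition, had the strongest promoter of the group, at percentiles 99.4, 99.8 and 99.7 in replicates 1, 2 and 3. Cdk4, the kinase partner of D-type cyclins, followed at 94.6, 98.9 and 98.4. Ccne1 and Cdk4 stood above the median open gene in every library. Cdk6, the other kinase partner of D-type cyclins, stood at 79.0, 90.3 and 86.5, Ccne2 at 73.6, 85.6 and 86.4, and Cdk2 at 72.6, 88.2 and 84.1, all below that median in each library. The Cdk2 promoter window also holds a start site of Pmel, so its peak cannot be given to one gene.

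The D-type cyclins, the subunits through which growth signals reach the cycle, differed widely from each other. Ccnd3 stood at 93.1, 94.0 and 96.2, and Ccnd2 at 78.2, 81.9 and 87.6. Ccnd1 had no promoter peak in replicate 1 and weak peaks at percentiles 46.8 and 25.8 in replicates 2 and 3. In each library the order was Ccnd3, Ccnd2, Ccnd1, and the 3 ranges did not overlap. No base of the Ccnd1 promoter window reached an FDR of 0.05 in replicate 1, against 354 and 136 bp in replicates 2 and 3.

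Ccnd3 opened at separate start sites. The group of upstream starts, between chr17:47505051 and chr17:47505241, held peaks of signal 5.91, 7.77 and 13.0, and a second group of starts between chr17:47593470 and chr17:47594756 held 3.999, 9.13 and 9.10. The remaining group of starts was without a peak in replicate 1 and weak in replicates 2 and 3, at signals of 0.463 and 0.724. Across the 40 members there were 52 separate start-site windows, of which 43 were open in all 3 libraries and 3 in none. Of those 3, 2 belong to Cdkn1a and the other to an internal start of Mki67. Separate windows were not counted over all genes.

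Among the RB and E2F genes, the activator E2f3 stood at 96.7, 98.8 and 99.4 and the activator E2f1 at 84.8, 94.2 and 94.3. The remaining activator, E2f2, stood much lower, at 52.0, 75.6 and 69.6. Rb1, the retinoblastoma protein that holds E2F factors inactive, stood at 66.3, 75.9 and 76.2. E2f2 and Rb1 lay below E2f1 and E2f3 in each library, with no overlap.

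CDK inhibitors held promoters at both ends of the whole set. Cdkn2d (p19INK4d), an inhibitor of Cdk4 and Cdk6, had the highest mean percentile of all 40 genes at 99.7 ± 0.245 (SD, n = 3), with 99.4, 99.8 and 99.9 in the 3 libraries. Ccne1, at 99.6 ± 0.168, was close behind, and stood above Cdkn2d in replicate 1 (99.44 against 99.42) and below it in replicates 2 and 3. Cdkn1b (p27), which restrains Cdk2 in resting lymphocytes, stood at 89.9, 92.6 and 90.6, and Cdkn2c (p18INK4c) at 85.5, 85.7 and 85.2. Cdkn1a (p21), a target of p53, stood at 67.4, 79.0 and 81.6. Cdkn2a, which encodes p16INK4a and p19ARF and is best known for its role in senescence, had no promoter peak in replicate 1 and percentiles of 37.9 and 17.7 in replicates 2 and 3. Its windows at both annotated starts, chr4:89282192 and chr4:89294653, showed this same pattern, with no base at an FDR of 0.05 in replicate 1.

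Among the member roles, the licensing and S phase genes stood highest, with medians of 93.1, 95.8 and 96.1. Of the 6 subunits of the MCM helicase, which is loaded at replication origins, 5 had mean percentiles from 94.3 to 98.7, led by Mcm4 at 98.1, 98.9 and 99.1 and Mcm5 at 98.0, 98.7 and 98.9. The other, Mcm3, stood lower at 82.9, 85.9 and 88.0. Mcm4 shares its promoter window with Prkdc and Mcm7 with Ap4m1. The helicase loaders Cdc6 and Cdt1 had means of 96.1 ± 1.56 and 92.4 ± 4.87, the sliding clamp Pcna 96.0 ± 1.06 and the ribonucleotide reductase subunit Rrm2 90.03 ± 4.86 (SD, n = 3 each).

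Tyms, the thymidylate synthase that makes the dTMP needed for DNA synthesis, was the exception in this group. Its promoter peaks had signals of 0.720, 0.710 and 0.724, at percentiles 30.3, 44.4 and 43.1, below every other licensing and S phase gene in every library. It was the lowest of the 38 members open in all 3 libraries, and its CpG ratio of 0.545 was among the lowest of the 40 genes.

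The G2 and mitosis genes had medians of 79.3, 90.1 and 90.6 and a wider spread. Top2a, the topoisomerase that untangles sister chromatids, had the highest mean percentile at 98.4 ± 0.937, with 99.4, 97.6 and 98.3, and Ccna2, the cyclin of S and G2 phases, stood at 97.0, 98.5 and 98.7. Top2a led in replicate 1 and Ccna2 in replicates 2 and 3. The mitotic cyclins Ccnb1 and Ccnb2 stood far below Ccna2, at 66.1, 85.6 and 83.4 and at 71.8, 83.9 and 81.9. Plk1, the polo kinase of mitotic entry and spindle assembly, stood lowest at 31.1, 50.02 and 47.9. Mki67, the proliferation marker Ki-67, stood at 79.4, 91.5 and 91.3. The kinases and checkpoint genes Cdk1, Aurka, Aurkb, Bub1 and Bub1b and the activator of the anaphase-promoting complex Cdc20 had means from 77.9 to 94.5. Aurka shares its promoter window with Cstf1.

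Among the members, licensing and S phase genes ranked above G2 and mitosis genes in each library. The medians over members open in all 3 libraries (11 and 12 genes) differed by 13.8, 5.75 and 5.54 percentile points, a mean of 8.37 ± 4.72 (SD, n = 3). An exact two-sided sign-flip test over the 3 libraries gave p = 0.25 (0.5 adjusted by Benjamini-Hochberg over the 12 comparisons of roles), and 0.25 is the smallest p that 3 libraries allow. The 2 groups overlapped gene by gene. The wider pathway lists had the opposite order in each library. Median percentiles were 91.4, 96.2 and 96.4 for 26 other mitosis genes and 88.2, 94.2 and 93.7 for 26 other origin and fork genes. The order among the members thus did not extend to these lists. G1 cyclins and kinases differed from G2 and mitosis genes by -0.26, 0.23 and -2.96 points, less than the spread between libraries (p = 0.5, exact sign-flip test; 0.6 adjusted). Without members that share a promoter window with another coding gene, an alternative added after seeing the data, this difference turned to 3.83 ± 2.65 (p = 0.25, the smallest possible, exact sign-flip test). The median CpG ratio was nearly the same in S phase and G2 genes, 0.802 and 0.799.

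The role groups also carried different promoter sequences. Motifs were searched on both strands from 250 bp before to 50 bp after each start site. E2F was taken as the word TTTGGCG, the word TTTCCCG or the word TTTCGCG. The CHR was taken as TTTGAA or the related word TTTAAA, the CCAAT box as its own letters, and the GC box, bound by Sp1 family factors, as GGGCGG. An E2F match lay in 8 of 11 licensing and S phase promoters and 4 of 4 RB and E2F promoters, but in 2 of 12 G2 and mitosis promoters. The share was 10.4% of all protein-coding genes and 15.4% of genes open in all 3 libraries. A CHR match lay in 11 of 12 G2 and mitosis promoters and 5 of 11 licensing and S phase promoters, against 38.7% of all genes and 35.1% of open ones. CCAAT matched in 11 of 12 and 8 of 11, against 51.6% and 54.0%. A GC box lay in 33 of 40 members, against 53.3% of all genes and 75.9% of open ones. G2 and mitosis genes had the shortest stretch searched, a median of 318 bp against 514 bp for open genes. With 500 bp on each side of the start sites the contrast in CHR largely closed, at 12 of 12 and 9 of 11 genes of these roles and 70.2% of open genes. CCAAT then matched 12 of 12 and 11 of 11, so these roles no longer differed, against 80.7% of all genes and 79.4% of open ones. Matches to different motifs overlapped in 5 cases among the members, 1 of E2F with a GC box and 4 that involved CCAAT.

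Footprints covered at least 50% of a CHR, E2F or CCAAT match in a minority of cases. Of 19 CHR matches in G2 and mitosis promoters, 4, 5 and 6 were covered in replicates 1, 2 and 3, 26.3% ± 5.26 (SD, n = 3), against 5.46% ± 1.76 of matches in all genes open in all 3 libraries. None of the 5 CHR matches in licensing and S phase promoters was covered in any library. Of 21 E2F matches in licensing and S phase promoters 3, 10 and 8 were covered, 33.3% ± 17.2, against 20.5% ± 5.03, and the value of replicate 1 lay at its background. Where the whole motif had to be covered, these shares were 17.5% ± 7.27 and 11.2% ± 4.42 for E2F and 10.5% ± 5.26 and 2.51% ± 0.999 for CHR. Overlapping E2F matches, as in Mcm4, Mcm5, Mcm6 and Rrm2, were counted separately, so matches are not independent sites. Mcm5 alone held 4 E2F matches, 2 of them covered in all 3 libraries. CCAAT matches were covered in 29.8% ± 7.44 of cases in G2 and mitosis promoters, 11.6% ± 9.05 in licensing and S phase promoters and 14.95% ± 4.10 in open genes. Top2a alone held 6 of the 28 CCAAT matches in G2 and mitosis promoters, 3 of them covered in all 3 libraries. Those 56 and 76 bp before its start lay under 1 footprint in each library. Matches were counted at every start site of a gene open in all 3 libraries, whether or not a peak lay over the match. The stretch searched was a median of 318 bp in G2 and mitosis genes and 514 bp in open genes. The part of this difference in the contrasts of cover was not tested. A match is a description of letters and does not show which protein was bound.

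**Figure D2:**
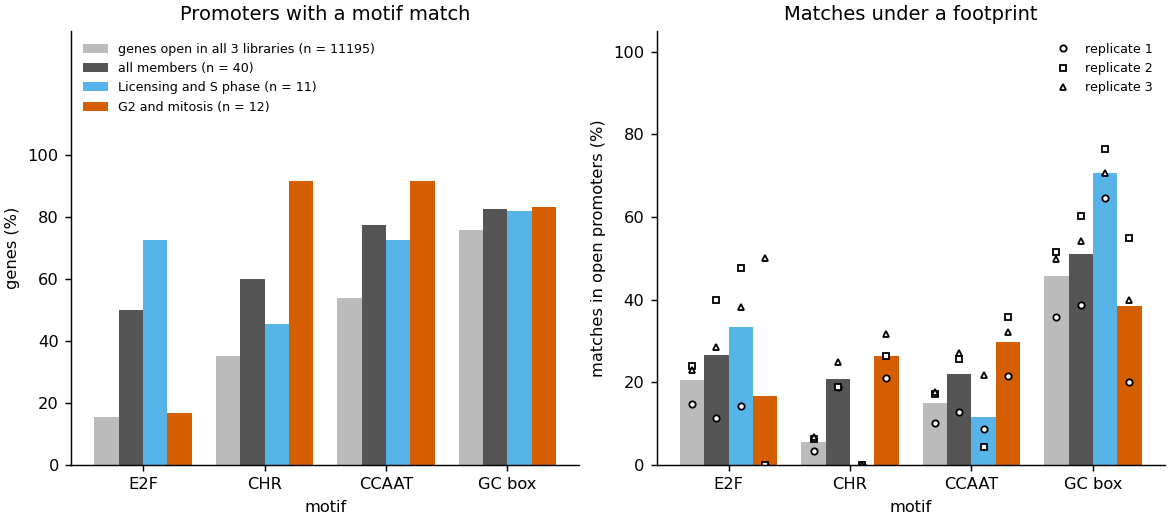
Left, bars give the share of promoters with at least 1 match (vertical axis, % of genes) for 4 motifs in open genes, all members and 2 roles. Right, bars give the mean share of matches with at least 50% of their bases under a footprint (vertical axis, %) and symbols the 3 libraries. Matches at any start site of genes open in all 3 libraries were counted. CHR matches were covered in 26.3% of cases in G2 and mitosis promoters and 5.46% in open genes.

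Stretches of 5 promoters are shown because they hold motif matches that footprints covered in all 3 libraries, each 5′ to 3′ on the strand of its gene. The letters are the GRCm38 (mm10) reference of C57BL/6J, and the CAST allele of these hybrid mice may differ. Capitals mark bases that lay under a footprint in all 3 libraries.
Top2a, chr11:99024179-99024379, minus strand: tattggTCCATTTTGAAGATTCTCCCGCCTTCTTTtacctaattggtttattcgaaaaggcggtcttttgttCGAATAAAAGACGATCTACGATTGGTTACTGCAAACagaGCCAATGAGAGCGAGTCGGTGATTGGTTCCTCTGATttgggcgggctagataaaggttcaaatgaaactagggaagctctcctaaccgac
Ccnb2, chr9:70421527-70421657, minus strand: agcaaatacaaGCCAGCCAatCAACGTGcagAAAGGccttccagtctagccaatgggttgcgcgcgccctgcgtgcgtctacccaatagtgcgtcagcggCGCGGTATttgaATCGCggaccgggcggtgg
Mki67, chr7:135716401-135716551, minus strand: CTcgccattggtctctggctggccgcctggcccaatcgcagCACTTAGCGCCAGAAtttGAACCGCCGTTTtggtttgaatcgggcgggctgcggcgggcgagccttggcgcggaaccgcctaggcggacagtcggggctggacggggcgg
Mcm5, chr8:75109339-75109479, plus strand: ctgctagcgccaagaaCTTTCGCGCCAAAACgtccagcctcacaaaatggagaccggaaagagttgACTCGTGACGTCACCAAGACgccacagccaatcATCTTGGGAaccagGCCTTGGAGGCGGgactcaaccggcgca
E2f3, chr13:29986043-29986133, minus strand: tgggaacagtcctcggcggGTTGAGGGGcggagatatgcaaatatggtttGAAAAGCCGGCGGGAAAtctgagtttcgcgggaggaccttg

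In Top2a, 3 CCAAT boxes lay 56, 76 and 96 bp before the start site, evenly spaced by 20 bp and read in alternating orientation, and each was wholly covered in each library. They occupy positions 93 to 97, 113 to 117 and 133 to 137 of the printed stretch. A CHR match 177 bp before the start, at positions 12 to 17, was wholly covered in each library too, whereas a second CHR match 21 bp before the start was bare in all 3. Footprints common to the 3 libraries took up 101 of the 201 printed bases, the largest share of the 5 stretches at 50.2%.

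Ccnb2 also had 3 evenly spaced CCAAT boxes, 26, 59 and 92 bp before the start and thus 33 bp apart. Only the outermost was at least 50% covered in each library, and the innermost was bare in all 3. A CHR match at the start site was covered by at least 50% in each library, but the covered bases differed between libraries, so its middle is in lower case. In Mki67 a CHR match 132 bp before the start was at least 50% covered in all 3 libraries, and another 114 bp before it in none.

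In Mcm5, a pair of overlapping E2F matches 210 and 205 bp before the start site, on opposite strands, lay wholly under 1 footprint in each library. Its other E2F matches, 5 bp before the start and at the start, were covered in replicate 2 alone. A second covered element 156 bp before the start reads as a palindrome around TGACGT, the core bound by CREB and ATF factors. E2f3 carried a covered E2F match 7 bp before its start, so that the gene of an E2F factor has a footprinted E2F motif in its own promoter. Another E2F match, 6 bp after the start, was bare in all 3 libraries. A CHR match 21 bp before the start and a GC box 43 bp before it were at least 50% covered in each library as well. The CHR match lay under the same footprint as the covered E2F match in each library, so it is not a separate protected element.

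**Figure D3:**
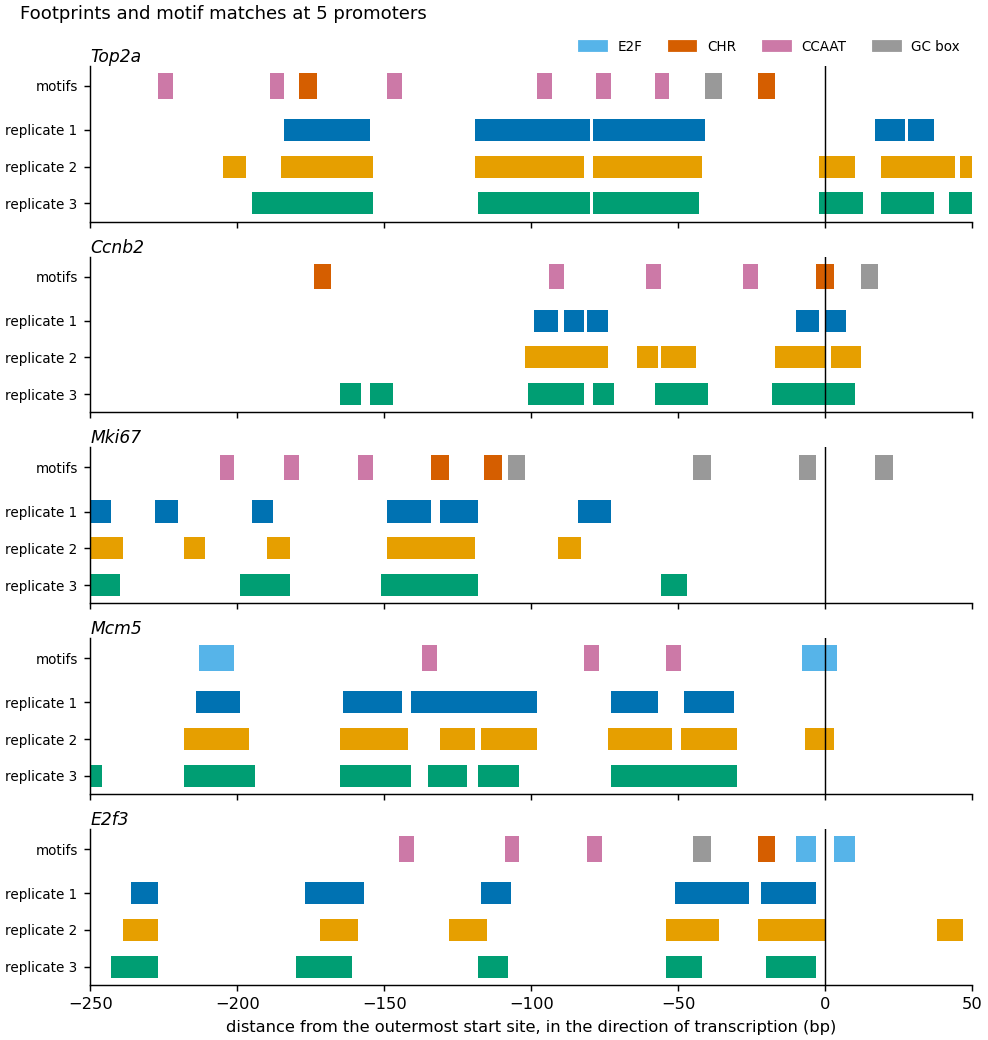
Each panel shows 1 promoter by distance from the outermost start site (horizontal axis, bp, in the direction of transcription), with motif matches in the top row and the footprints of each library below. The 3 CCAAT boxes of Top2a at 56, 76 and 96 bp before the start lie within the long footprints in all 3 libraries.

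Away from start sites, peaks in the gene body or its 10 kb flanks were counted where they touched no promoter window of any annotated transcript. Members had a median of 1, 2 and 2 such peaks in replicates 1, 2 and 3, against 0, 1 and 1 for all genes. Such a peak was present in at least 2 libraries for 31 of 40 members and 62.2% of all genes. After merging peaks that overlap between libraries there were 181 regions, of which 50 were found in 3 libraries, 70 in 2 and 61 in 1. Introns held 95 of them, exons 10, upstream flanks 42 and downstream flanks 34. The middle of 48 regions lay nearer to a start site of another coding gene, so the counts describe neighbourhoods and not enhancers assigned to a gene.

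The regions were spread unevenly. Cdk6 had 25, all in introns of its long gene, Ccnd3 18, E2f2 14, Rb1 12 and Ccnd2 11. Cdk2, Cdkn2a, Mcm4, Ccna2, Ccnb1 and Plk1 had none. Per 10 kb of window, G1 cyclins and kinases had 0.382, 0.930 and 0.887 peaks and G2 and mitosis genes 0, 0.196 and 0.337 (medians of 8 and 12 genes). The medians over all protein-coding genes were 0, 0.298 and 0.281. The difference between these roles was 0.555 ± 0.176 (SD, n = 3), above 0 in 3 of 3 libraries (p = 0.25, the smallest possible, exact sign-flip test; 0.5 adjusted). Among the cyclins the same measure was 0.425, 1.57 and 1.13 for the 3 D-type genes and 0, 0.299 and 0 for the 5 of types A, B and E, a difference of 0.943 ± 0.454 with the same p. Ccne1, with 1, 6 and 5 peaks, departed from the other E-, A- and B-type cyclins, whose counts did not exceed 2. Per 10 kb Ccne1 had 0.338, 2.03 and 1.69. Its mean of 1.354 exceeded those of Ccnd2 (1.276), Ccnd3 (1.105) and Ccnd1 (0.556), so the difference of medians does not hold gene by gene.

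**Figure D4:**
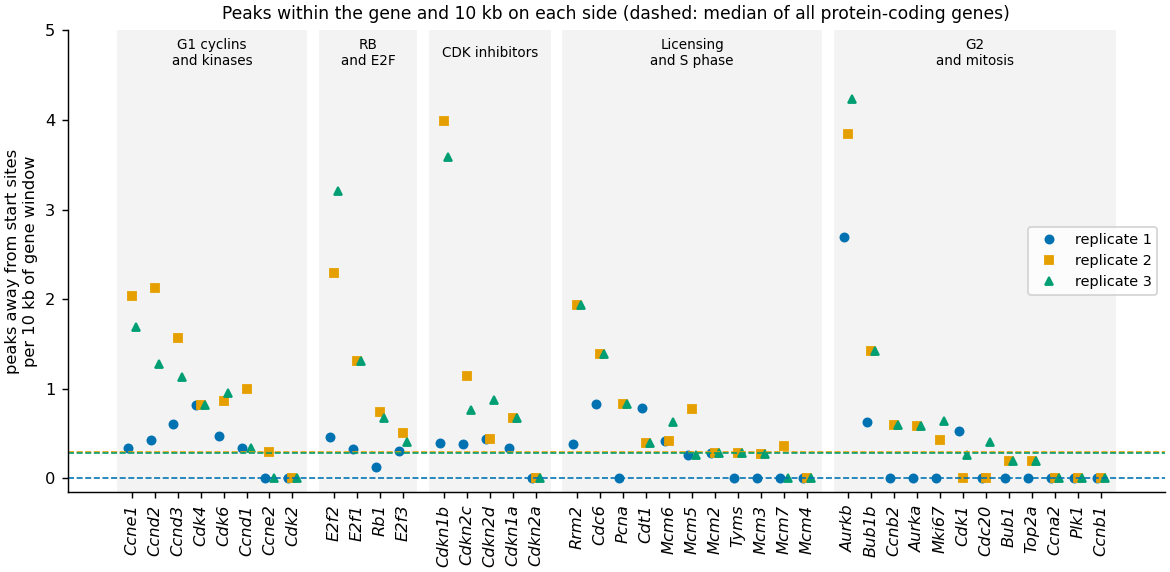
Points give, for each gene and library, the number of peaks away from start sites per 10 kb of gene window (vertical axis), grouped by role, and dashed lines the medians of all protein-coding genes. Cdkn1b, Aurkb and E2f2 reach the highest densities, while 6 genes stay at 0 in all 3 libraries.

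A pair of intronic regions, in Ccnd3 and Cdkn1a, were the strongest found in all 3 libraries and are printed for that reason, each on the plus strand, which is that of its gene, with capitals as above.
Ccnd3 intron, chr17:47511201-47511440: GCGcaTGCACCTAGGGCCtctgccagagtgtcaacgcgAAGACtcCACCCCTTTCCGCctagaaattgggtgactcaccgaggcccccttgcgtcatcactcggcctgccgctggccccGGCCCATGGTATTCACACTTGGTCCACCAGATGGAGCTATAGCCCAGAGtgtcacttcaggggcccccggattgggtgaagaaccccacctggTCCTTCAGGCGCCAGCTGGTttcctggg
Cdkn1a intron, chr17:29095461-29095700: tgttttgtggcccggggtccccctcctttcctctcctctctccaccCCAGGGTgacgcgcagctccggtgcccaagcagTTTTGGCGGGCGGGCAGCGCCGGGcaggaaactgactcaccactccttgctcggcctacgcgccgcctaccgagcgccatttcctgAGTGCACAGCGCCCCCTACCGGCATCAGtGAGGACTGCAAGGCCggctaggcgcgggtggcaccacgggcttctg

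The Ccnd3 region lay 6080 bp after the nearest start site, with its middle as reference, and stood at percentiles 99.2, 99.1 and 99.2. That was above the strongest promoter peak of Ccnd3 in each library. It held 6, 7 and 6 footprints, and 103 of its 240 bases were covered in all 3 libraries. The nearest start site of another coding gene, Taf8, was 9029 bp away. Another Ccnd3 intronic region, chr17:47508061-47508320, stood at 93.1, 95.2 and 94.8.

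The Cdkn1a region lay 1800 bp after the nearest start site and stood at 97.0, 97.7 and 98.5, against 67.4, 79.0 and 81.6 for the promoter. In each library this intron was thus the more accessible site. An E2F match at positions 81 to 87 of the printed stretch and a GC box at positions 87 to 92, which share 1 base, lay inside a footprint common to the 3 libraries. The other covered stretches held no match to the motifs searched, and motifs beyond that list were not searched. Of 240 bases, 74 were covered in all 3 libraries.

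Aurkb, the kinase of the chromosomal passenger complex, had a modest promoter, at 69.01, 82.8 and 82.0, next to a dense upstream cluster. All 10 of its regions lay upstream, 7 of them in all 3 libraries, between chr11:69035941 and chr11:69041920. The strongest, chr11:69040901-69041400, stood at 91.5, 96.2 and 95.4, above the Aurkb promoter in each library. One of the 7 lies inside the neighbouring gene Ctc1, and nothing here ties the cluster to Aurkb. E2f2 likewise had a region stronger than its promoter, chr4:136180041-136180240 in an intron, at 87.0, 94.2 and 93.7 against 52.0, 75.6 and 69.6.

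Cdkn1b had 10 regions, 1 in all 3 libraries and 7 in 2 of them, at 1, 10 and 9 peaks in replicates 1, 2 and 3. Its density therefore rests on replicates 2 and 3. Rrm2, with 1, 5 and 5 peaks, shows the same dependence. Ccnd2 had 2, 10 and 6 peaks, with its strongest region, chr6:127147781-127147980, in an exon at 82.5, 90.9 and 90.8.

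Replicates 2 and 3, which had lists of similar length, were compared on log2 promoter signal centred on all open genes. Over the 40 members the median difference (replicate 2 minus replicate 3) was -0.06, with 15 of 40 above 0, against 0.01 over all genes, with 6357 of 12364 above 0. The licensing and S phase genes lay between -0.35 and 0.10 and the G2 and mitosis genes between -0.29 and 0.17. The D-type cyclins and Cdk6 varied most: Ccnd1 was at 0.71, Cdk6 at 0.40, Ccnd3 at -0.48 and Ccnd2 at -0.70, and outside this group Cdkn2a was at 0.66. For Ccnd3, Cdkn2a and Mcm7 the strongest peak lay at different start sites in replicates 2 and 3. Signals of Ccnd3 were 7.77 and 13.0 at its upstream starts and 9.13 and 9.10 at its second group of starts. Lineage markers moved between the same libraries. The median was -0.93 over 12 natural killer markers, 1 of them above 0, and 1.03 over 8 B cell markers, 8 of them above 0.

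The B cell markers also differed in how many were open, 6, 9 and 8 of 10 in replicates 1, 2 and 3. The 6 open in all 3 libraries had median percentiles of 33.7, 90.5 and 79.5, while Vpreb3 had no promoter peak in any library. The open T cell markers numbered 3, 8 and 6 of 10 and the share of all genes ran in the same order, 51.7%, 58.8% and 58.0%. Ccnd1 and Cdkn2a had this order too, with replicate 2 highest and replicate 1 without a peak. The part of other cell types in these differences between libraries was not tested.

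**Figure D5:**
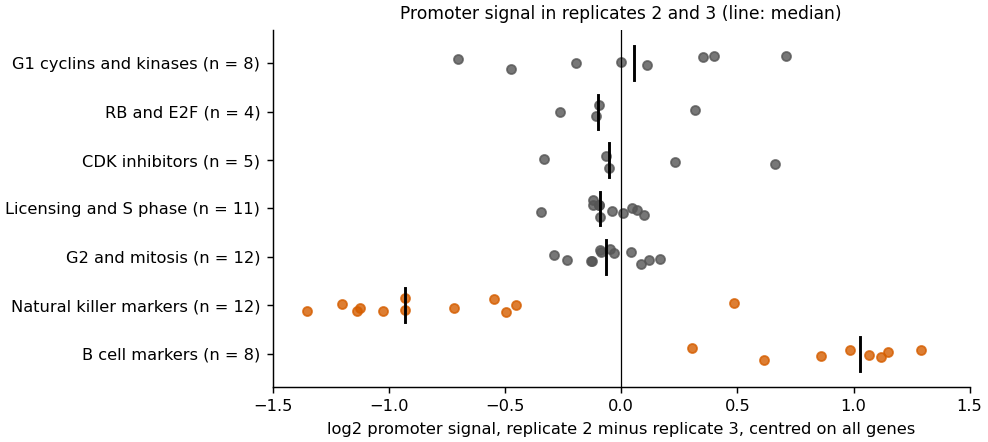
Points give the log2 difference in promoter signal between replicates 2 and 3 (horizontal axis, centred on all genes) for members by role and for 2 marker lists, and black lines the medians. Licensing and S phase genes stay between -0.35 and 0.10, while natural killer markers have a median of -0.93 and B cell markers of 1.03.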

How the data were processed

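DNase-seq lists of 3 libraries were used. Per the deposited files, each library has 2 peak lists, a footprint list and intervals whose cut rate carries a false discovery rate (FDR, a q-value). The deposited peak signal is a coverage-like value whose scale the authors do not state, so it was ranked within a library, and the longer peak list was used. The deposited footprint score is the constant 0.01, not a measurement. Names and versions of the software for alignment and calling were not given in the sources used here.

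The labels name mm10, and 0 peaks lay beyond the GRCm38 ends of 21 chromosomes. Start sites are those of protein-coding transcripts in GENCODE vM21, and 40 of 40 members matched. Percentile is the percent of the library's peaks with a lower signal. Distal peaks touched no window of 500 bp around any annotated start. CpG ratios are the highest over a gene's starts, within 500 bp. A motif was covered where a footprint held at least 50% of it, counted in genes open in all 3 libraries. FDR intervals up to 0.05 were used. Differences of role medians were tested by exact two-sided sign-flip tests over libraries. The interval and rank functions were tested on simulated data. Python 3.11.15, pandas 2.3.3, numpy 2.4.6 and pysam 0.24.0 were used.

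The members, gene lists and motifs were chosen with earlier results of these data known. All members could be named. Examples were the highest and lowest of each role, those not open in every library and those with the most or no distal regions, and of other lists genes without a promoter peak. The pairs of genes or regions compared in the text and the printed stretches were chosen after their values were seen. Alternatives were other windows and overlap rules, the stricter peak list, the better-scoring 50% of peaks, and leaving out each library. The CpG background and the phases without shared promoters were added after seeing the data.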

Additional observations from a re-analysis of the deposited data

How the results depend on the processing

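The count of members open in all libraries stayed between 36 and 40 under every alternative run. The share over all genes was not recomputed under these alternatives. The median percentile of members fell to 81.5 with the better-scoring 50% of peaks, and it was between 88.7 and 91.8 when each library was left out in turn. The median number of peaks around members, 4.0, became 2.67 with the better-scoring 50% of peaks, 11.0 with 50 kb of flank and 1.67 in the gene body alone. Footprints around members, a median of 13.8, became 34.2 with 50 kb of flank and 4.33 in the gene body alone. Distal peaks, 1.67, became 0.667 with the stricter list and with the better-scoring 50%, 6.0 with 50 kb of flank and 0.333 in the gene body alone.

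Licensing and S phase members ranked above G2 and mitosis members under all 8 alternatives run, by 5.64 to 16.6 points. Every alternative drew on the 40 members, whereas the wider lists of other mitosis genes and of other origin and fork genes had the opposite order. G1 genes minus G2 and mitosis genes turned from -0.999 to 3.83 without members that share a promoter window with another coding gene, an alternative chosen after seeing the data, and was -2.17 to -0.0167 when each library was left out. The rank of D-type minus other cyclins, 6.63 over the 2 D-type genes open in all libraries, ran from -1.28 to 8.77 when each library was left out. It turned negative without replicate 1, where Ccnd1 counts as open. The excess in median distal peaks per 10 kb at D-type cyclins kept its sign, at 0.498 to 1.20, although Ccne1 had the highest mean density of the cyclins compared.

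With motif windows of 500 bp on each side, E2F matches rose from 2 to 4 of 12 G2 and mitosis genes and CHR matches from 5 to 9 of 11 licensing and S phase genes. In those wider windows CHR matched 12 of 12 G2 and mitosis genes, 72.6% of all genes and 70.2% of open ones, so the contrast between roles and with all genes largely closed. E2F matched 9 of 11 licensing and S phase genes, 22.4% of all genes and 31.2% of open ones. CCAAT matched 12 of 12 G2 and mitosis genes and 11 of 11 licensing and S phase genes, beside 80.7% of all genes and 79.4% of open ones. CHR matches under a footprint in G2 and mitosis promoters were 10.5% where the whole motif had to be covered and 38.6% where 1 bp sufficed, against 2.51% and 7.02% in open genes. CCAAT matches were 38.1% in the latter case, against 20.6% in open genes. E2F matches in licensing and S phase promoters fell from 33.3% to 17.5% where the whole motif had to be covered, against 11.2% in open genes. The median difference between replicates 2 and 3 turned from -0.06 to 0.0183 when percentiles replaced centred log2 values, both near 0. No paired analysis was possible because there is 1 group, with no samples of another group to pair. Roles were compared within each library. Read depth is unknown, and replicate 1 has the shortest lists, so an absent peak there is weak evidence of a closed site.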
